A study of Mus musculus with 4 samples.

Results

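The elastic fibre genes and lysyl oxidases described here are 10 named mouse genes: the lysyl oxidases Lox, Loxl1, Loxl2 and Loxl3, elastin (Eln), and the microfibril-associated genes Fbn1, Mfap4, Mfap5, Fbln5 and Ltbp2. A gene was taken with every probe set to which the platform annotation gives only its symbol, which left 8 genes on 14 probe sets, of 18193 genes named on the arrays. Both probe sets of Loxl2 carry 2 symbols and were named for none, and 0 probe sets are listed for Fbn1, so these genes have no value here. The genes were proposed with the heart values of these same arrays in view. Their heart differences therefore chose them, and are given as a description with no test.

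RNA was measured on 4 oligonucleotide arrays, with heart and muscle of d/d mice and of f/f mice on 1 array each. In d/d mice both alleles of the MnSOD gene, Sod2, were deleted by Cre recombinase from an MCK-Cre transgene, made by crossing flox/flox mice with MCK-Cre mice. The f/f mice carry the same loxP-flanked Sod2 alleles and are labelled as the control, and the labels do not say whether they carry the transgene. MCK is muscle creatine kinase, whose promoter drives Cre in muscle tissues, so cells of other types in heart and muscle are not its stated target. Age, sex, the muscle that was taken and the number of animals behind each sample are not given in the sources used here. With 1 array a group, no error between animals could be given, no p-value was computed, and each difference compares a pair of arrays.

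An elastic fibre has a core of elastin laid down on a scaffold of microfibrils. The microfibrils are built mainly of fibrillins and carry glycoproteins such as MFAP4 and MFAP5, and fibulins such as FBLN5 help tropoelastin to assemble on them. Lysyl oxidases are secreted copper enzymes that oxidise lysines of elastin and collagen so that the chains become cross-linked. In the heart such fibres lie in vessel walls, valves and the interstitium, and in skeletal muscle in vessel walls and the connective tissue around fibres.

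Intensities were scaled so that the arrays shared 1 trimmed mean, and a signal under 7.51 was treated as lying at the floor, the level below which signals were not told apart. Between 58.0% and 61.1% of probe sets lay above the floor on each array. A difference is the log2 of d/d over f/f, and a gene passes 2-fold only if its brighter array was above the floor. Higher and lower alone give the direction of the values on a pair of arrays. A fold against an array at the floor is a minimum and is written "at least". As a technical yardstick, probe sets of the same gene differed with an SD of 0.388 in their heart log2 difference and 0.400 in muscle. Sod2 was lower in d/d on 4 of 4 probe sets in heart (log2 -1.22 to -0.21) and on 3 of 4 in muscle (-0.44 to 0.06), and where these lie relative to the deleted part is not stated. On its brightest probe sets the heart differences were -0.27 and -0.21, less than the SD of 0.388. The -1.22 was on the dimmest, and in muscle only the -0.44 of that probe set exceeded the SD of 0.400. The tissue labels went with their markers: 7 cardiac muscle genes summed to 31854 and 33840 on the heart arrays and to 339 and 1235 on the muscle arrays. The summed signal of 7 skeletal muscle genes was 63745 and 59471 on the muscle arrays and 4111 and 4314 on the heart arrays, where Ckm, which both tissues express, made up most of it. On the d/d heart array 40 of 42 spike-in control probe sets read higher than on f/f heart, with a median ratio of 1.24, against 0.928 in muscle. The 3 probe sets for 18S ribosomal RNA also read higher on the d/d heart array, 3 of 3 with a median ratio of 1.82, against 0.904 in muscle, and the part of this in the heart differences was not tested. Scaling the arrays on the spike-in controls, an alternative chosen after the data were seen, lowers the heart differences.

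All 8 genes with a value were higher in d/d heart than in f/f heart, and d/d heart was the highest of the 4 arrays for each of the 8, as it was for 27.5% of all genes measured in both tissues. The heart differences ran from a log2 of 1.34 for Loxl1 to at least 5.84 for Mfap4, with a median of 2.18 over the 8, against -0.05 over all 13836 genes measured in heart. All 8 passed 2-fold, where 3.94% of genes passed 2-fold in this direction and 4.22% in the other, and since the heart values chose the genes, nothing is read from this. Over all genes 545 passed 2-fold towards d/d and 584 towards f/f. With the arrays scaled on the spike-in controls, which moved the median of all genes to -0.34, 281 and 1251 did, and the count among the 8 was still 8, with a median of 1.86. Of the 14 probe sets, 12 were above the floor on a heart array, and all 12 passed 2-fold towards d/d.

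**Figure D1:**
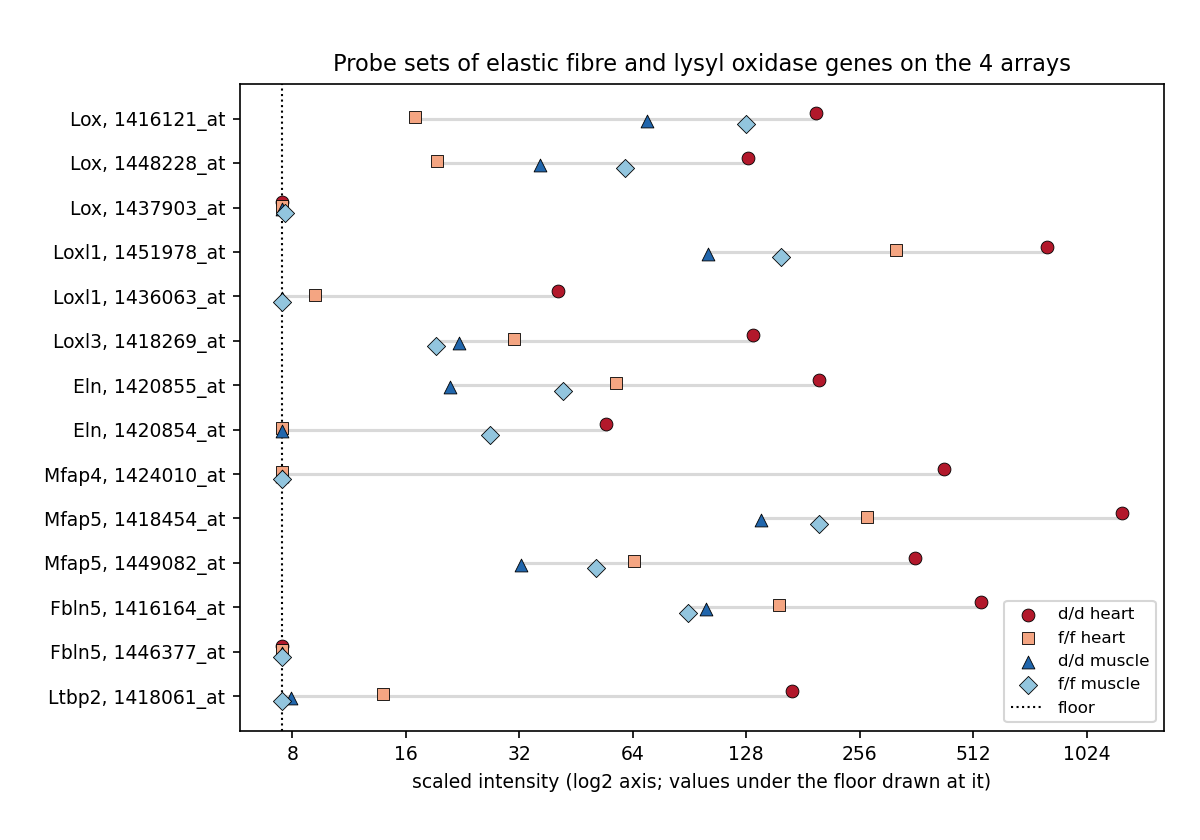
Scaled intensity (log2 axis) of each of the 14 probe sets on the 4 arrays, 1 point per array with no error bar because each group has 1 array. Points under the floor of 7.51 (dotted line) are drawn at it. For each gene's brightest probe set the d/d heart point lies farthest to the right, and the f/f heart point of Lox lies left of both muscle points.

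Lox, the founding lysyl oxidase, differed most of the cross-linking enzymes. Its brightest probe set, 1416121_at, read 196 in d/d heart, 16.9 in f/f heart, 69.7 in d/d muscle and 128 in f/f muscle. The f/f heart array was thus the lowest and the d/d heart array the highest. The heart difference was 11.6-fold (log2 3.54). A second probe set read 129 against 19.3 in d/d and f/f heart, 6.69-fold, and 36.4 against 61.1 in d/d and f/f muscle. It kept the same order of the arrays, although the platform annotation gives both probe sets the same source sequence, so they are not independent. The third, 1437903_at, was at the floor on both heart arrays and at 7.67 at most, and gives no heart difference.

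Loxl1, a lysyl oxidase that acts mainly on elastin and binds fibulin-5, had the smallest heart difference of the 8. It read 805 in d/d heart, 319 in f/f heart, 101 in d/d muscle and 158 in f/f muscle, so both heart arrays were above both muscle arrays. The heart difference was 2.53-fold on this probe set (log2 1.34). On its dimmer probe set it was 4.42-fold, at 40.6 against 9.18, and the muscle arrays were at the floor there.

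Loxl3, a lysyl oxidase with scavenger receptor domains, has 1 probe set. It read 133 in d/d heart, 31.0 in f/f heart, 22.1 in d/d muscle and 19.2 in f/f muscle. The d/d heart array stood apart from the others, which lay within 31.0 and 19.2. The heart difference was 4.30-fold (log2 2.10). Loxl1 and Loxl3 thus differed from Lox in having f/f heart above both muscle arrays.

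Elastin, the core of the fibre, was higher in d/d heart on both probe sets. The brighter, 1420855_at, read 199 in d/d heart, 57.7 in f/f heart, 20.9 in d/d muscle and 41.8 in f/f muscle. The heart difference was 3.44-fold (log2 1.78). The dimmer read 54.3 in d/d heart, was at 26.7 in f/f muscle and lay at the floor on the other arrays, so its heart difference was at least 7.23-fold. Both probe sets had d/d heart highest and f/f muscle above d/d muscle, but they placed f/f heart differently, above f/f muscle on the brighter and at the floor on the dimmer.

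Mfap4, a fibrinogen-domain glycoprotein that binds microfibrils and tropoelastin, had the largest heart difference of the 8. Its 1 probe set read 429 in d/d heart, 7.14 in f/f heart, 1.95 in d/d muscle and 1.60 in f/f muscle. Only the d/d heart signal was above the floor, so the heart difference is a lower bound, at least 57.1-fold, and no muscle difference could be given. The size of this bound is set by the floor: with the floor at the 60th percentile of the signals it was a log2 of 4.50 in place of 5.84.

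Mfap5, a small microfibril glycoprotein also known as MAGP-2, gave the same picture on both of its probe sets. The brighter, 1418454_at, read 1270 in d/d heart, 268 in f/f heart, 140 in d/d muscle and 199 in f/f muscle, and the other read 359, 64.4, 32.4 and 51.1 in that order. The order of the 4 arrays was identical on both. The heart difference was 4.75-fold (log2 2.25) on the first and 5.57-fold (log2 2.48) on the second, apart by less than the SD between probe sets of a gene.

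Fbln5 encodes fibulin-5, which binds tropoelastin, LOXL1 and cell surface integrins. It read 538 in d/d heart, 156 in f/f heart, 100 in d/d muscle and 89.5 in f/f muscle, a heart difference of 3.44-fold (log2 1.78). The f/f heart signal was above both muscle signals, which were close to each other. Its second probe set was at the floor on all 4 arrays, the 1 of the 14 that was, and shows nothing. Taking the median over the probe sets of a gene therefore put Fbln5 at a log2 of 0.89 in heart, under 2-fold.

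Ltbp2, a relative of the latent TGF-beta binding proteins that associates with fibrillin microfibrils, had a heart difference close to that of Lox, and which of them was the larger depended on the floor. It read 169 in d/d heart, 13.9 in f/f heart, 7.94 in d/d muscle and 6.07 in f/f muscle. The f/f heart and d/d muscle signals were near the floor and f/f muscle was at it. The heart difference was 12.1-fold (log2 3.60).

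Promoter sequence from RefSeq (build GRCm38.p6) was at hand for 3 of the 10 genes, Ltbp2, Fbln5 and Fbn1. Those of Ltbp2 and Fbln5 are shown because both genes were higher in d/d heart and both are microfibril-associated, so that what their starts share can be seen. Each window runs 5′ to 3′ on the minus strand of chromosome 12, from 250 bases before to 50 after an annotated start. Capitals mark matches, on either strand, to any of 6 motifs: the AP-1 motif TGANTCA, the TEAD motif GGAATG, the SMAD motif CAGACA, the TATA box TATAAA, the CCAAT box CCAAT and the GC box GGGCGG.
Ltbp2, chr12:84876442-84876741: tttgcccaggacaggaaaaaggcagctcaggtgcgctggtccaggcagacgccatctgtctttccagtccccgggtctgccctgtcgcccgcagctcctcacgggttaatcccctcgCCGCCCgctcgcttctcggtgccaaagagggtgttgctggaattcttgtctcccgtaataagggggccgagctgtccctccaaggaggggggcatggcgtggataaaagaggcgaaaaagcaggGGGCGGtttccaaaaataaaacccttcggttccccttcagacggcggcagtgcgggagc
Fbln5, upstream start, chr12:101819070-101819369: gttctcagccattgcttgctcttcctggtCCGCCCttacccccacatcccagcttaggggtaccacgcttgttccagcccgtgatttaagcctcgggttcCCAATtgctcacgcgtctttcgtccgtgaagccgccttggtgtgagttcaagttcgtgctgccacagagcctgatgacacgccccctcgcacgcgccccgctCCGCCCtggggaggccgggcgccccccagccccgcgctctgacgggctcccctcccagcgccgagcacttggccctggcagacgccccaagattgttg
Fbln5, downstream start, chr12:101818435-101818734: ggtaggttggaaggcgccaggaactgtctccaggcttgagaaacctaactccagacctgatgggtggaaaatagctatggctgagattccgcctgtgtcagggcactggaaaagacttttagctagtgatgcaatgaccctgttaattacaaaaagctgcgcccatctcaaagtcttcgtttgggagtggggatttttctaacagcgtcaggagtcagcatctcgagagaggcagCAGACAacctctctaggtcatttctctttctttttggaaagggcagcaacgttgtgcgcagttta
The Ltbp2 window held 2 GC boxes, the upstream Fbln5 window 2 GC boxes and 1 CCAAT box, and the downstream Fbln5 window 1 SMAD motif, and 0 pairs of matches overlapped. The only motif with a match at a start of both genes was the GC box, which 35.7% of the 32851 windows of that length in the table hold, against 37.4% for the CCAAT box and 21% for the SMAD motif. The AP-1 motif, held by 7.81% of all windows, the TEAD motif (14.7%) and the TATA box (13.6%) had no match in these 3. The bases G and C made up 61% of the Ltbp2 window and 65.7% of the upstream Fbln5 window, against a median of 52.7% over all windows. The share of windows with a GC box was not matched for this. The Fbn1 window, not shown, held a GC box as well. The probe sets do not tell which Fbln5 start was used, and a match is a run of letters, not a shown binding site.

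In muscle the same genes did not follow the heart. Of the 7 with a muscle value, 4 lay below 0 and 3 above, with a median log2 difference of -0.50, against -0.00 over all 14256 genes measured in muscle. Only elastin reached 2-fold, at 41.8 in f/f and 20.9 in d/d on its brighter probe set (log2 -1.0), where 3.25% of all genes were at least 2-fold lower and 2.64% higher. It lay at the 2-fold line, and scaling on the 75th percentile, quantile normalization or scaling on the spike-in controls left 0 of the genes past 2-fold. On the dimmer elastin probe set the difference was at least 3.55-fold lower.

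Lox was 1.84-fold lower in d/d muscle (log2 -0.88) and 1.68-fold lower on its second probe set. Loxl1 was 1.56-fold lower (log2 -0.64). Mfap5 was 1.42-fold lower (log2 -0.50) and 1.58-fold lower on its other probe set. Each of these differences was larger than the SD of 0.400 between probe sets of a gene, which does not measure error between animals. Loxl1 fell under that SD with the median over its probe sets (-0.32), and Mfap5 with spike-in scaling (-0.37).

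Loxl3 differed by a log2 of 0.20 and Fbln5 by 0.17, less than that SD, so their muscle values are not told apart between d/d and f/f at this precision. For Ltbp2 there is only a bound of 0.08, with d/d muscle near the floor and f/f muscle at it, and with the floor at the 20th percentile it was 0.39.

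So Lox, Loxl1, elastin and Mfap5 were higher in d/d heart and lower in d/d muscle, 4 of the 7 genes measured in both tissues. Of all 12711 genes measured in both, 24.1% had that pair of directions at any size, and the heart direction was fixed by the choice of genes. The heart difference exceeded the muscle difference for all 7, by a median log2 of 2.75. Lox was farthest apart at 4.41, followed by Ltbp2 at 3.52, and Fbln5 was the least at 1.62. This difference between tissues was not tested, because each of the 4 groups has 1 array.

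**Figure D2:**
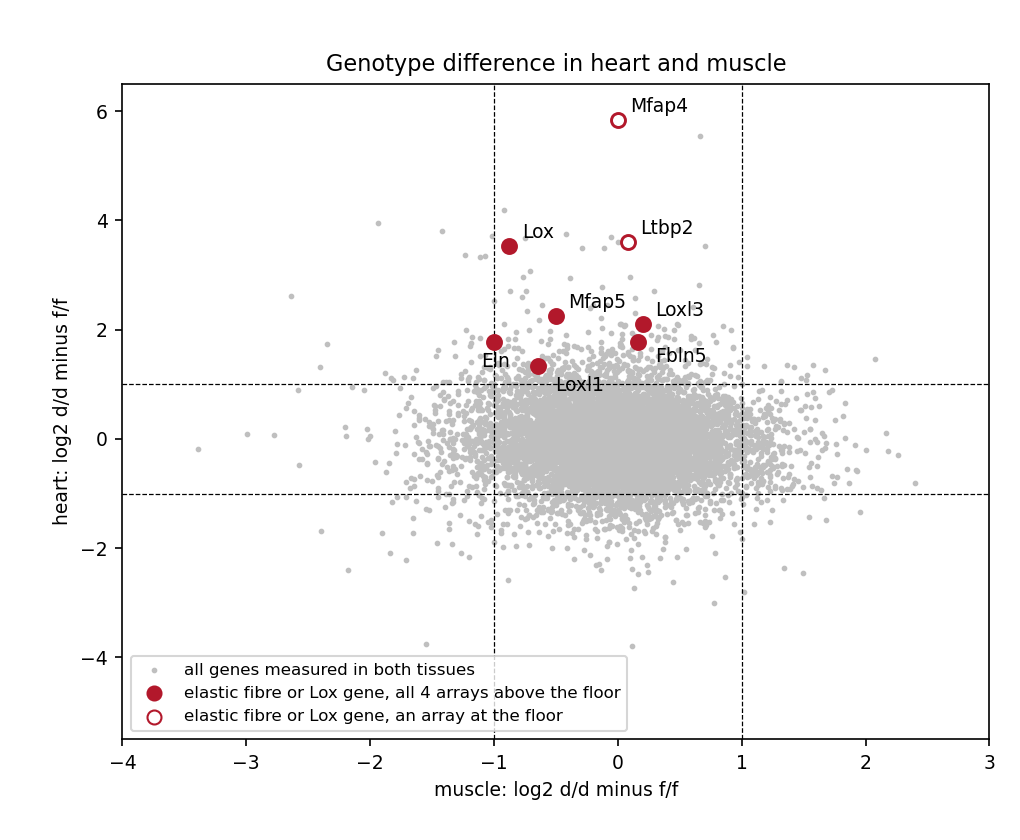
Log2 difference d/d minus f/f in muscle (x axis) and heart (y axis) for each gene measured in both tissues (grey) and for the 8 elastic fibre and lysyl oxidase genes (red; open where an array was at the floor). Dashed lines mark 2-fold. The 8 genes lie above the upper line in heart, from 1.34 to 5.84, and between -1.0 and 0.20 in muscle, where Mfap4 is drawn at 0 because both muscle arrays were at the floor.

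Between the control tissues, f/f heart against f/f muscle, Lox went the other way from the rest on the brightest probe sets. Of the 7 genes measured, 6 were higher in f/f heart, with a median log2 difference of 0.69 against 0.08 over all genes. Lox was 7.56-fold lower in f/f heart than in f/f muscle (log2 -2.92; -1.66 on its second probe set), where 8.30% of 14364 genes were at least 2-fold lower in heart and 12.1% higher. Loxl1 was 2.02-fold higher in f/f heart, and Fbln5, Loxl3, elastin and Mfap5 were between 1.35-fold and 1.75-fold higher, with Ltbp2 at least 1.86-fold higher. How many genes passed 2-fold here depended on the scaling. With deposited values left unscaled, which moved the median of all genes from 0.08 to 0.47, 4 genes were at least 2-fold higher in heart, and with the 75th percentile 0 were. Over all genes 59.4% of the 2-fold calls were on the heart side, against 83.7% unscaled, 46.8% with the 75th percentile and 77.5% with the spike-in controls. With the median over its probe sets elastin was lower in f/f heart, at -0.68. Its dimmer probe set was at least 3.55-fold lower in f/f heart (log2 -1.83), so the direction of elastin here is not settled.

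In d/d mice the order of the tissues was the same for all 8: each was higher in d/d heart than in d/d muscle. The difference ran from 2.81-fold for Lox to at least 57.1-fold for Mfap4, with Ltbp2 at 21.3-fold, elastin at 9.52-fold, Mfap5 at 9.05-fold, Loxl1 at 7.95-fold, Loxl3 at 6.04-fold and Fbln5 at 5.36-fold. All 8 passed 2-fold, where 15.1% of 14124 genes did in this direction and 10.5% in the other. On the brightest probe sets Lox was the 1 gene of 7 whose tissue order turned over, as 11.8% of genes did. It went from muscle above heart in f/f to heart above muscle in d/d. The dimmer elastin probe set turned over too. It was at least 3.55-fold lower in f/f heart than in f/f muscle, and at least 7.23-fold higher in d/d heart than in d/d muscle. The comparison of the d/d tissues uses the d/d heart array again, so it is not independent of the heart difference.

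Other genes of the elastic fibre pathway were taken from a list of 34, of which 30 had a probe set. In heart 28 were measured, with a median log2 difference of 0.49: 7 passed 2-fold towards d/d and 3 towards f/f, and the others lay between -0.77 and 0.99. Scaled on the spike-in controls, 4 passed towards d/d (Adamtsl2, Ctss, Ltbp3 and Fbln2) and 4 towards f/f, with Mmp9 as the added gene. In muscle 27 were measured, with a median of -0.42, and 1 passed 2-fold towards d/d and 3 towards f/f. The background for these counts is the same as for the genes above, 3.94% and 4.22% in heart and 2.64% and 3.25% in muscle.

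The 7 that passed towards d/d in heart came from several roles. Adamtsl2, a secreted ADAMTS-like glycoprotein that binds fibrillin microfibrils, read 157 in d/d heart against 35.3 in f/f heart, 4.46-fold, and was at the floor on both muscle arrays. Ltbp3, which binds latent TGF-beta, read 464 against 171, 2.72-fold, and 2.99-fold on another of its probe sets. Fbln2, a fibulin that binds fibrillin, read 365 against 136, 2.68-fold. With the median over their probe sets Ltbp3 was at a log2 of 0.79 and Fbln2 at 0.71, both under 2-fold. These 3 are structural or microfibril-associated proteins, as are most of the genes above.

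Pcolce, which speeds the cleavage of procollagens by BMP1, was 2.16-fold higher, at 1286 against 596, and 2.65-fold on its other probe set. Among the proteases that can degrade elastin or its scaffold, Ctss was 2.97-fold higher (348 against 117), Ctsk 2.19-fold (77.1 against 35.1) and Mmp2 2.08-fold (385 against 185). Ctss is a macrophage marker as well. Mmp14 was just short of 2-fold at 1.98-fold, with 1.93-fold and 1.06-fold on other probe sets. Mmp12 was at least 1.99-fold higher, with f/f heart at the floor, so it was not counted but may lie past 2-fold. With the floor at the 20th percentile it was at a log2 of 2.80. With spike-in scaling Pcolce was at a log2 of 0.80, Ctsk at 0.82 and Mmp2 at 0.75, all under 2-fold, so that of these proteases Ctss alone passed.

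The 3 that passed towards f/f in heart were also matrix genes. Efemp1, which encodes fibulin-3, read 11.0 in d/d heart against 57.6 in f/f heart, 5.22-fold lower, and 56.0 and 51.9 in d/d and f/f muscle. The d/d heart array alone had a low Efemp1 signal, and the other 3 were close to each other. Thsd4, which promotes microfibril assembly and is also called ADAMTSL6, was 2.47-fold lower at 9.19 against 22.7 (log2 -1.30, but -0.65 with the median over its probe sets and -0.26 with a 60th-percentile floor), and Emilin2, an elastin microfibril interface protein, 2.37-fold lower at 46.0 against 109.

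Several close relatives of the 8 genes were under 2-fold in heart. The fifth lysyl oxidase, Loxl4, read 12.5 and 9.69 in d/d and f/f heart, 1.29-fold higher, close to the floor. Bmp1, the protease that cleaves the pro-form of lysyl oxidase, was 1.23-fold higher. Mfap2, the close relative of Mfap5, was 1.47-fold higher at 54.1 against 36.8, and 1.08-fold on its other probe set. Ltbp4 was 1.62-fold higher and Ltbp1 1.20-fold lower. Fbln1 read 309 against 298, and the fibrillin gene Fbn2 was at 8.31 in d/d heart and at the floor in f/f heart. On their brightest probe sets the differences of Loxl4, Bmp1, Ltbp1 and Fbln1 were smaller than the SD of 0.388 between probe sets. With spike-in scaling those of Bmp1 and Fbln1 changed sign. Other probe sets did not all lie within that SD: Fbln1 was at a log2 of 0.56 and 0.14, and Bmp1 at -0.05 and at least 0.75. Loxl4 was at least 0.73 on its other probe set.

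In muscle, Ctsk was 2.19-fold lower at 30.6 against 67.0, while it was higher in d/d heart. Fbln7 was at least 2.06-fold lower against a d/d signal at the floor. Emilin1 was at least 2.24-fold lower on its brighter probe set but at least 2.57-fold higher on the other, where f/f muscle was at the floor, so its direction in muscle is not settled. Mfap2 was the 1 gene at least 2-fold higher, at 33.2 against 15.8, 2.10-fold, the opposite of the direction of Mfap5.

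**Figure D3:**
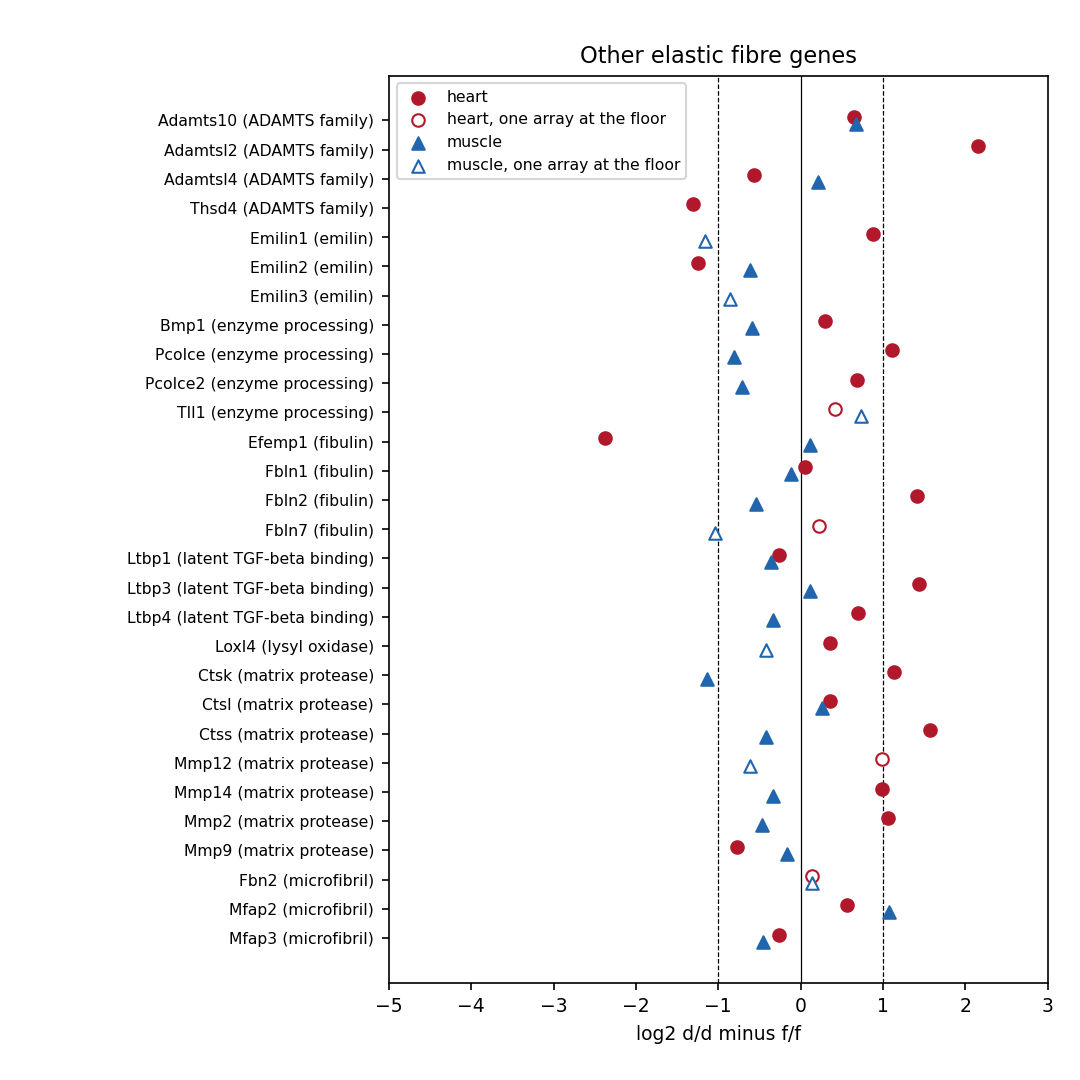
Log2 difference d/d minus f/f in heart (circles) and muscle (triangles) for each gene of the list of other elastic fibre genes that was above the floor in a tissue, grouped by role; open symbols have 1 array at the floor and are lower bounds in size. Dashed lines mark 2-fold. Adamtsl2 lies farthest right at 2.16 in heart and Efemp1 farthest left at -2.38, while 19 of 27 muscle values lie below 0.

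Markers of several cell types were measured beside these genes. In whole tissue, more cells of a type and more RNA per cell cannot be told apart. Of 12 fibroblast markers, 10 were above 0 in heart, 3 of them 2-fold or more, with a median log2 difference of 0.48, and their summed signal was 10239 in d/d heart against 6344 in f/f heart. Scaled on the spike-in controls the median was 0.17, with 8 of 12 above 0 and 2 past 2-fold. Pdgfra, a defining marker, was 1.55-fold higher on its brightest probe set but at -0.01 with the median over its probe sets, Tcf21 was at 0.19 and -0.16 in the same way, and Dpt was at -0.08. The 3 past 2-fold were the collagen genes Col1a2 and Col1a1 and, without spike-in scaling, Pi16. The summed signal of the 8 genes was 3739 in d/d heart against 870 in f/f heart, a ratio that the choice of the genes fixed as high.

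Genes known from activated fibroblasts differed more. All 6 passed 2-fold towards d/d heart (5 with spike-in scaling), with a median of 3.72, and their sum was 4359 in d/d heart against 487 in f/f heart. They include Comp, 18.3-fold higher, and Postn, 6.51-fold, and some of them were put on this list with their heart values known. Of 4 tendon genes 2 passed 2-fold towards d/d heart, Fmod at 7.86-fold and Tnmd at least 14.0-fold, at the floor in f/f heart. Scx was at 1.56-fold and Mkx at the floor on both heart arrays. Over all genes 3.94% passed 2-fold towards d/d heart, and these lists were chosen with earlier results of these data known. Of the markers of smooth muscle, a main source of elastin in vessels, 2 of 5 measured were above 0 and 0 passed 2-fold. Their median was -0.19 in heart (-0.50 with spike-in scaling), their sum was 1725 in d/d against 1902 in f/f heart, and Myh11 was 1.14-fold lower.

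For macrophages, 9 of 10 markers were above 0 in heart, with a median of 0.54 (0.22 with spike-in scaling) and sums of 2644 in d/d and 1787 in f/f. Ctss was 2.97-fold and Cx3cr1 2.90-fold higher in d/d heart, whereas Cd163 was 2.46-fold lower. With the median over its probe sets Cx3cr1 was at a log2 of 0.67. For endothelium 5 of 7 were above 0, with a median of 0.31 (0.00 with spike-in scaling) and sums of 1803 and 1417. The medians of 3 mesothelial markers and of 7 cardiac muscle genes were both -0.07. With spike-in scaling they were -0.72, over the 2 mesothelial markers then measured, and -0.38. Of the 7 cardiac muscle genes 2 were above 0 in heart, and Ryr2 was 2.24-fold and Myl7 1.78-fold lower in d/d. Of 4 adipocyte genes on the arrays, Lep and Cidec were at the floor in heart, and the sum was 33 in d/d against 69 in f/f heart. Adipoq was 4.47-fold lower in d/d heart, at 10.4 against 46.6, and Retn 1.29-fold lower. The part of fibroblasts, macrophages and tendon-like cells in the differences of the 8 genes was not tested.

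In muscle 12 of 12 fibroblast markers lay below 0 (11 with spike-in scaling), with a median of -0.84, and 5 of the 12 passed 2-fold towards f/f (4 with spike-in scaling), where 3.25% of all genes did. Their sum was 4657 in d/d against 7366 in f/f muscle, and Tcf21 and Cd248 were at the floor in d/d. The 6 genes of activated fibroblasts were all below 0 as well, 1 of them past 2-fold, with a median of -0.75 and sums of 900 and 1434. Of the macrophage markers 9 of 9 were below 0 and 1 passed 2-fold, at a median of -0.62, while smooth muscle had -0.27 and endothelial markers 0.15. Both adipocyte genes measured passed 2-fold towards f/f, Adipoq at 2.30-fold and Retn at least 3.05-fold, and the sum of that list was 56 in d/d against 121 in f/f muscle. Tendon genes were divided, with 2 of 4 below 0, and their sum was 862 in d/d against 1542 in f/f muscle. The cardiac muscle genes that could be measured in muscle were at least 2-fold lower in d/d, 5 of 5, and their part, like that of fibroblasts, macrophages and adipocytes, in the muscle values of Lox, Loxl1, elastin and Mfap5 was not tested.

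**Figure D4:**
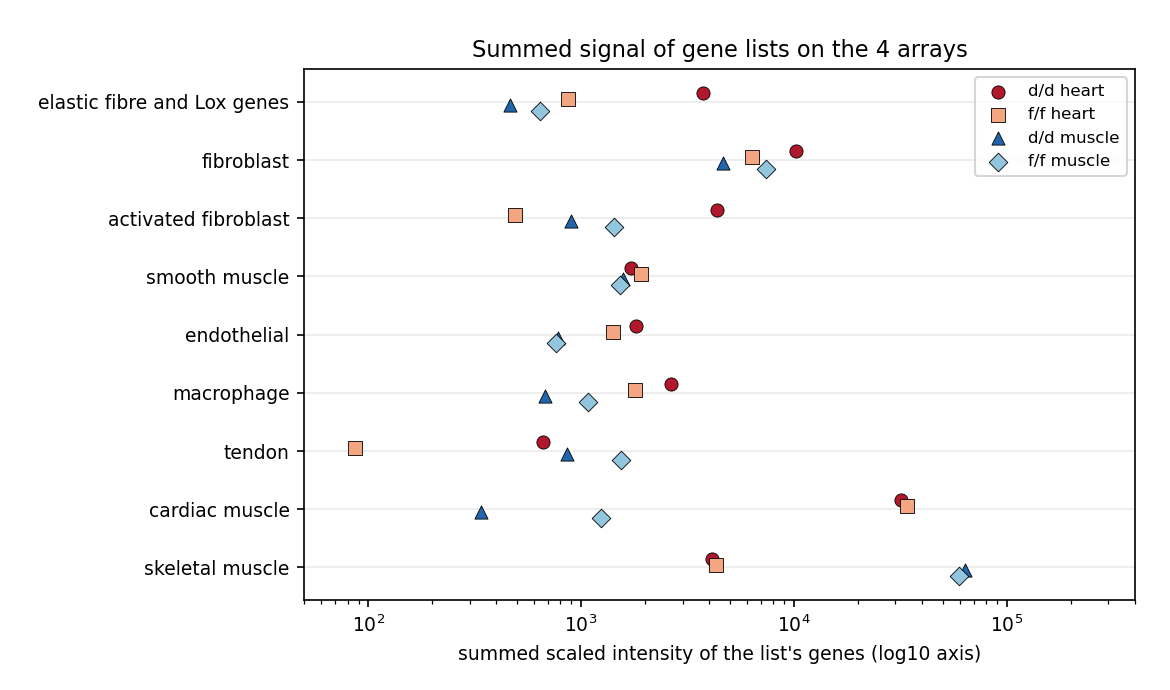
Summed scaled intensity (log10 axis) of the 8 elastic fibre and lysyl oxidase genes and of cell type marker lists on the 4 arrays, 1 point per array. The 8 genes sum to 3739 in d/d heart and to 465 to 870 on the other arrays, whereas the smooth muscle list lies between 1528 and 1902 on all 4.

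Among themselves the 8 genes differed in shape across the arrays. Each gene's 4 log2 signals were centred on their mean, and the median over the 8 was 1.85 in d/d heart, -0.23 in f/f heart, -1.22 in d/d muscle and -0.78 in f/f muscle. Mfap5 lay closest to this median profile, at a Euclidean distance of 0.23, followed by elastin at 0.49, Loxl3 at 0.52, Fbln5 at 0.55 and Loxl1 at 0.60. Ltbp2 lay at 1.43. Lox, with its low f/f heart signal, and Mfap4, with 3 arrays at the floor, lay at 2.75 and 2.90, beyond the median of 2.39 for other genes. The median profile thus lay within 0.60 of 5 of the 8 genes and farthest from Lox and Mfap4.

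Outside the genes above, the 5 nearest to that profile over the 4 arrays were Mmp3, Meox1, Mpeg1, Qpct and Fibin, at distances of 0.37 to 0.45. Meox1, a homeobox transcription factor, read 352 in d/d heart, 69.6 in f/f heart, 31.3 in d/d muscle and 51.9 in f/f muscle. Mmp3, the matrix protease stromelysin-1, read 48.3, 12.6, 1.47 and 7.79 in that order, and Mpeg1, a pore-forming protein of macrophages, 203, 48.3, 29.9 and 28.9. With 4 arrays a small distance is a description of these arrays only.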

How the data were processed

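Per the labels, RNA of 4 mouse samples was hybridised to 4 oligonucleotide arrays. The authors deposited linear intensity values, 1 for each of 45101 probe sets on every array; their summary method and scaling are not given in the sources used here. After removal of 64 control probe sets, a factor per array equalised the 2% trimmed means of the arrays. Signals under 7.51, the average 40th percentile, were raised to that floor and log2 was taken. The platform annotation names 1 symbol for 34945 of the other 45037 probe sets and several for 932, and 9160 are not listed. Of the named probe sets, 34754 were found in the RefSeq gene table by Entrez id, with 0 symbols changed. The probe set with the greatest average log2 signal stood for a gene. Named genes were all members with every probe set, pathway genes past 2-fold, and the 5 nearest profiles among genes with 3 or more arrays over the floor. Other pathway genes and markers were named after their values were seen. Members and gene lists were chosen with earlier results of these data known. The calculation was tested on simulated data. Alternatives covered scaling, floor, offset, choice of probe set and fold. Python 3.11.15, pandas 2.3.3, numpy 2.4.6, scipy 1.17.1 and matplotlib 3.10.9 were used.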

Additional observations from a re-analysis of the deposited data

Results flagged for a closer look

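For 4 genes the d/d heart array was above f/f heart and the d/d muscle array below f/f muscle, so that the single pair of arrays in each tissue moved in opposite directions. Of all 12711 genes measured in both tissues, 24.1% had that pair of directions at any size. The heart values chose the 4 genes, which fixed their heart direction. Their heart difference exceeded the muscle difference by a log2 of 4.41 for Lox, 2.79 for Eln, 2.75 for Mfap5 and 1.98 for Loxl1. With 1 array a group the difference between tissues was not tested.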

How the results depend on the processing

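No paired analysis was possible because each group holds 1 array, and for the same reason no array could be left out. Over 11 alternatives, 175 counts and medians of the 8 genes and the pathway list were compared with the values as reported. Of these, 142 moved little: counts by no more than 1.5 times (5 by exactly that) and medians by less than the SD between probe sets. The other 33 moved further, and the cause was not tested. Some of the 142 could not move. None of the 14 probe sets has a name that marks possible shared sequence, so leaving such probe sets out could not change the 8 genes' values. The count of genes whose heart difference exceeded the muscle difference does not use the fold. Of the medians 0 reversed, while counts were compared in size only and could not reverse. The heart values chose the 8 genes, so their heart counts were fixed as high. The 8 genes' heart count stayed at 8, or 7 with the median over probe sets and at 3-fold. Elastin, the 1 gene at least 2-fold lower in d/d muscle, left 0 such genes with 75th percentile scaling, quantile normalization, an offset of 16, spike-in scaling and at 3-fold, and at 1.5-fold 3 genes were lower. Against 1 gene at least 2-fold higher in f/f heart than in f/f muscle, there were 4 with unscaled values and at 1.5-fold, 3 with spike-in scaling and with a 20th-percentile floor, and 0 with 75th percentile scaling, the offset, the median over probe sets and at 3-fold. The median of heart minus muscle, 2.75, was 2.36 with the floor at the 60th percentile, 2.35 with the offset and 2.31 with spike-in scaling. Of the pathway list, 7 were higher in heart, against 13 at 1.5-fold, 4 with spike-in scaling and 1 at 3-fold, where 1 was lower. In muscle 1 was higher, against 3 at 1.5-fold and 0 with unscaled values, the floor at the 60th percentile, the offset, the median over probe sets and at 3-fold. In muscle 3 were lower, against 9 at 1.5-fold, 6 with the floor at the 20th percentile, 1 with unscaled values and with a 60th-percentile floor, and 0 with the offset and at 3-fold. Spike-in scaling was chosen after seeing the data. Over all genes the share of 2-fold calls towards d/d was 48.3% in heart and 44.8% in muscle, against 39.7% and 31.2% unscaled and 18.3% and 59% with spike-in scaling. The order of Ltbp2 and Lox in heart, 3.60 and 3.54, turned with a 60th-percentile floor (3.16 and 3.37) and the offset (2.63 and 2.69). Signals near the floor limit Mfap4, Ltbp2 and the dimmer elastin probe set.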
